A study of Homo sapiens with 12 samples.

Results

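The genes described here are 10 members of the BCL2 family, namely BCL2, BCL2L1, MCL1, BCL2A1, BAK1, BCL2L11, BID, BIK, HRK and BMF, out of the 60617 Ensembl genes quantified. They were chosen by name as pro- and anti-apoptotic family members that are not direct p53 targets. RNA-seq was performed on 12 libraries that the labels assign to sublines of HCT116, a human colon cancer cell line. HCT 116p53-/- cells carry the genotype P53-/-, and the subline labelled RPL3 KO, called uL3Δ in the study, is described as derived from them and stably silenced of uL3, the ribosomal protein encoded by RPL3. By the labels P53-/- is thus shared by every library, and each group is a single cell line rather than several clones or donors. Cells received 5 nM actinomycin D (Act D), an inhibitor of RNA polymerase I at low concentrations, for 24 h, or vehicle, and each of the 4 groups held 3 libraries that the labels call biological replicates. Levels are given as counts scaled to a common library size by the TMM method (normalized CPM) and are compared between libraries for the same gene.

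Proteins of the BCL2 family decide whether the outer mitochondrial membrane is opened and cytochrome c is released to activate caspases. BCL2, BCL-XL (the main product of BCL2L1), MCL1 and BFL1 (the product of BCL2A1) hold the effectors BAK and BAX in check. The BH3-only proteins BIM (from BCL2L11), BID, BIK, HRK and BMF bind the anti-apoptotic members or the effectors and shift this balance towards cell death. Colon cancer cells often depend on BCL-XL and MCL1 for survival, and MCL1 has a short-lived mRNA and protein.

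The targeted gene was examined first. RPL3 lay between 1112 and 1151 CPM in the 6 HCT 116p53-/- libraries and between 1132 and 1337 CPM in the 6 libraries labelled RPL3 KO, so that its mRNA was not lower under that label (log2 fold change 0.13 ± 0.08 SE with vehicle, edgeR adjusted p = 0.155). Library totals were between 10087880 and 21138861 counts. The epithelial markers CDH1 and CDX2 were at 66.8 and 14.8 CPM in vehicle-treated HCT 116p53-/- cells and at 0.445 and 0.177 CPM under the RPL3 KO label, whereas KRT8 and KRT18 were abundant in both lines. With vehicle, 6 of 7 colon epithelial markers tested were lower and 6 of 8 mesenchymal markers were higher in the libraries labelled RPL3 KO. Of all genes tested, 36.2% were lower and 35.1% higher there. The colon markers CDX1, VIL1 and LGALS4 were not tested, with group means of at most 0.198 CPM in either line. The summed mesenchymal markers reached 2538 to 2602 CPM under that label against 57.8 to 70.5 CPM. VIM made up most of that sum, with a mean of 2237 against 22 CPM, followed by FN1 at 249 against 22.6 CPM. The mesenchymal markers COL1A1 and CDH2 were not higher, at 4.14 against 7.5 CPM and 0.648 against 0.746 CPM. Blood markers summed to at most 0.701 CPM and endothelial markers to at most 1.97 CPM in any library. Descent of the libraries labelled RPL3 KO from HCT 116p53-/- cells thus rests on the label alone, and the identity of the cell line behind them is in doubt, so that a line difference below compares libraries by label and cannot be read as an effect of uL3 alone. The part of these wide line differences in the results below was not tested, and in each line difference the label and the marker shift cannot be told apart.

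The lines differed in most of the family genes, and Act D changed few of them. Of the 9 members that passed the filter on low counts, 3 had a higher and 4 a lower level under the RPL3 KO label with vehicle. The same call was made for 71.3% of all 15692 genes tested (35.1% higher and 36.2% lower; edgeR quasi-likelihood test, Benjamini-Hochberg adjusted p under 0.05). With Act D, 2 members were higher and 4 lower, against 70.4% of all genes called (35.1% higher and 35.3% lower). The median absolute log2 difference between lines was 1.54 for the members and 0.74 for all genes with vehicle, and 1.00 and 0.74 with Act D. Act D raised 2 members and lowered 1 in HCT 116p53-/- cells, where 18.7% of all genes were called (7.59% higher and 11.1% lower). In the libraries labelled RPL3 KO it lowered 1 member and raised none, with 11.9% of all genes called (3.51% higher and 8.4% lower); at an unadjusted p under 0.05, 3 members passed, and DESeq2 called 1 member higher and 1 lower of the 7 for which it gave an adjusted p. The response to Act D differed between lines for 1 member, in the negative direction, with 6.53% of all genes called (3.3% positive and 3.23% negative). Read against these shares, the members' counts do not set the family apart from the background. For Act D in HCT 116p53-/- cells 3 of 9 were called against 18.7% of all genes. Of these 3, BAK1 lost its call when any library of that comparison was left out.

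**Figure D1:**
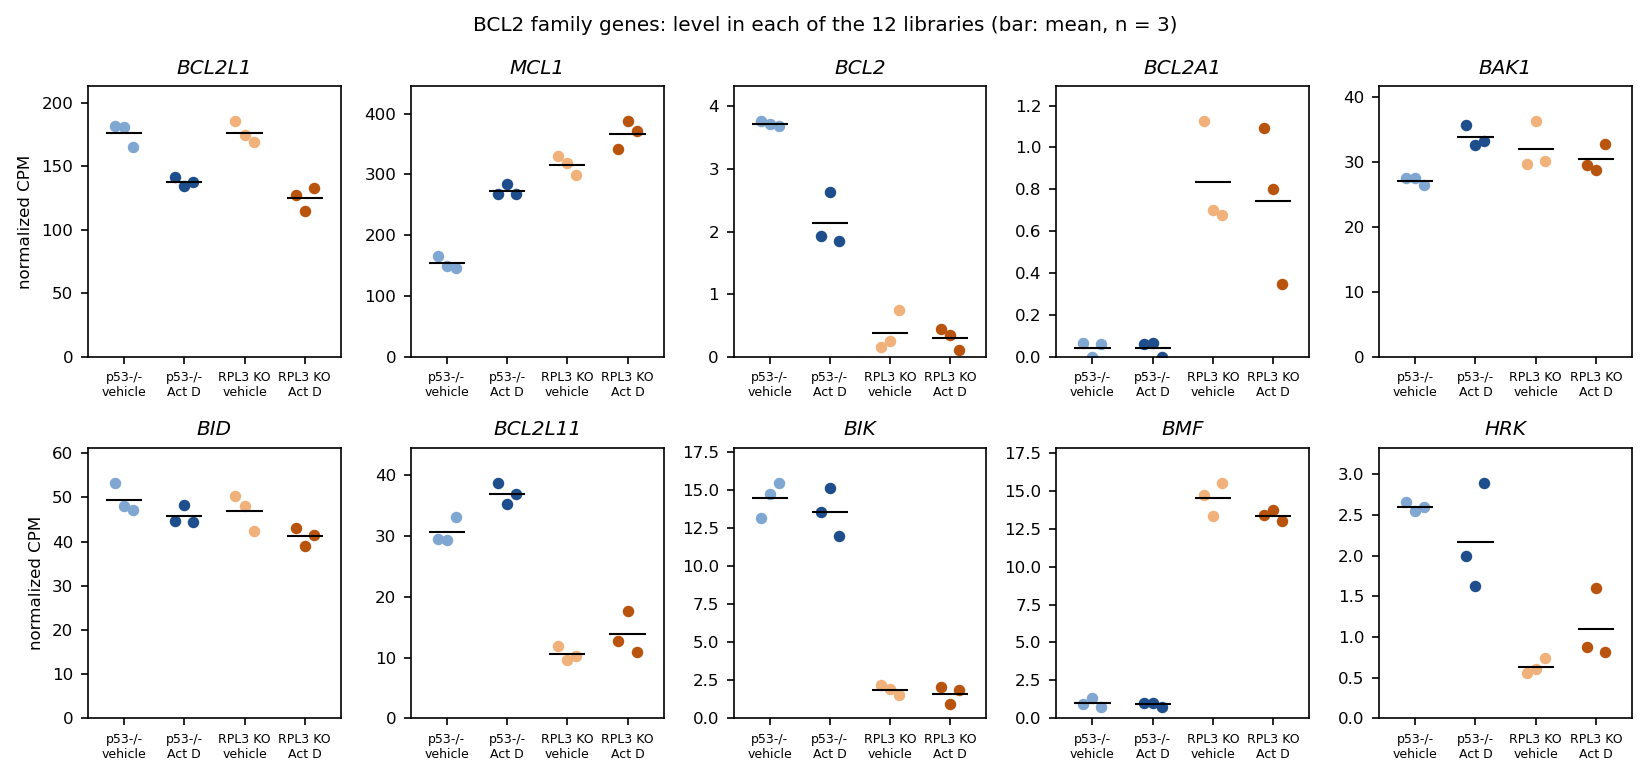
Level of each BCL2 family gene in normalized CPM (vertical axis, linear, starting at 0) in the 4 groups; points are the 3 libraries of a group and bars their mean. BMF and BCL2A1 stand higher and BCL2, BCL2L11, BIK and HRK lower in the libraries labelled RPL3 KO, and MCL1 rises from 146 to 166 CPM in vehicle-treated HCT 116p53-/- cells to 268 to 284 CPM with Act D.

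MCL1 changed in more of the comparisons than any other member. The MCL1 gene, which encodes a short-lived guardian of mitochondria, lies at chr1:150560895-150579738 on the minus strand of hg38. In vehicle-treated HCT 116p53-/- cells it was at 166, 149 and 146 CPM in replicates 1, 2 and 3. With Act D the same cells had 269, 284 and 268 CPM. Every treated library was above every vehicle library, and the rise was 0.83 ± 0.08 on the log2 scale (SE; edgeR adjusted p = 1.95e-06).

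In vehicle-treated libraries labelled RPL3 KO, MCL1 stood at 329.7, 319 and 298.5 CPM, already above the Act D-treated HCT 116p53-/- libraries. With Act D it was at 342, 387 and 371 CPM there. These groups did not overlap either, but the difference of 0.22 ± 0.08 did not pass the test (edgeR adjusted p = 0.0941); DESeq2 and upper-quartile scaling called it, with adjusted p of 0.0487 and 0.0298. The difference between the responses was itself tested and was -0.61 ± 0.11 on the log2 scale (edgeR adjusted p = 0.00369), so that MCL1 rose less under the RPL3 KO label. Between lines, MCL1 was higher under that label by 1.04 ± 0.08 with vehicle (edgeR adjusted p = 2.54e-09) and by 0.42 ± 0.08 with Act D (edgeR adjusted p = 0.000143). Scaling by library size alone moved the median of all genes by -0.24 between lines, and the difference with Act D was then 0.17 (edgeR adjusted p = 0.0999).

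BCL2L1 (chr20:31664452-31723989, minus strand), the source of BCL-XL, fell with Act D in both lines. Its levels in HCT 116p53-/- cells were 182, 181 and 165 CPM with vehicle and 141, 135 and 138 CPM with Act D. In the libraries labelled RPL3 KO they were 186, 175 and 169 CPM with vehicle and 128, 115 and 133 CPM with Act D. No treated library overlapped a vehicle library of its line. The fall was by 0.35 ± 0.08 on the log2 scale in HCT 116p53-/- cells (edgeR adjusted p = 0.00424) and by 0.49 ± 0.08 under the RPL3 KO label (edgeR adjusted p = 0.000455). The responses differed by -0.14 ± 0.11 (edgeR adjusted p = 0.507), which did not pass the test.

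With vehicle the BCL2L1 groups of both lines overlapped, with a difference of 0.0015 ± 0.08 on the log2 scale (edgeR adjusted p = 0.987). Its sign turned to -0.24 when libraries were scaled by library size alone (edgeR adjusted p = 0.0333), close to the shift of the median gene under that scaling. With Act D BCL2L1 was -0.14 ± 0.08 under the RPL3 KO label (edgeR adjusted p = 0.129), and without replicate 3 of the Act D-treated libraries labelled RPL3 KO this was -0.22 (adjusted p = 0.0415).

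BCL2, the founding member of the family (chr18:63123346-63320128, minus strand), was scarce in HCT 116p53-/- cells and close to the counting limit in the other line. Its expected counts were 58, 54 and 61 in vehicle-treated HCT 116p53-/- libraries, or 3.76, 3.72 and 3.68 CPM. Under the RPL3 KO label they were 2, 5 and 11 with vehicle, or 0.161, 0.25 and 0.743 CPM. No library overlapped between lines, and the log2 difference was -3.25 ± 0.42, lower under that label (edgeR adjusted p = 1.69e-06). The summed counts of 173 and 18, scaled for library size, gave a ratio of 9.76 with a 95% counting interval of 6.00 to 16.9. With Act D the counts were 31, 39 and 23 in HCT 116p53-/- cells and 6, 3 and 1 under the RPL3 KO label, a difference of -2.72 ± 0.49 (edgeR adjusted p = 7.6e-05). All 3 treated HCT 116p53-/- libraries, at 1.93, 2.64 and 1.85 CPM, lay below the vehicle libraries, yet the log2 change of -0.79 ± 0.34 did not pass the test (edgeR adjusted p = 0.118). It did pass in a fit of only the 2 groups compared (adjusted p = 0.0209) and in the likelihood-ratio test (adjusted p = 0.0351).

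BCL2A1 (chr15:79960892-79971196, minus strand), an NF-κB target better known from blood cells, did not pass the filter on low counts. Its counts were 1, 0 and 1 in vehicle-treated and 1, 1 and 0 in Act D-treated HCT 116p53-/- libraries. In the libraries labelled RPL3 KO they were 14, 14 and 10 with vehicle and 15, 7 and 3 with Act D. The groups of the lines did not overlap under either treatment. The ratio of summed counts, scaled for library size, was 18.7 with a 95% counting interval of 4.83 to 160.0 with vehicle, and 17.4 with an interval of 4.33 to 151 with Act D; both intervals cover counting error only. With no filter the line differences passed edgeR's test, with adjusted p of 1.74e-05 and 0.000113.

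Per length, MCL1 and BCL2L1 changed places. The comparison of genes within a library used the deposited TPM, a unit that divides by transcript length, and was chosen after its values were seen. In vehicle-treated HCT 116p53-/- cells BCL2L1 led the family at 63.8 ± 4.27 TPM (SD, n = 3), followed by BID at 35.3 ± 3.93 and MCL1 at 31.8 ± 4.2 TPM, whose ranges overlapped. BIK followed at 13.7 ± 0.833 TPM, BAK1 at 10.1 ± 0.678 and BCL2L11 at 5.32 ± 0.455, and the other members were at most at 0.51 TPM in every library. The ratio of MCL1 to BCL2L1 TPM was 0.532, 0.463 and 0.495 in these libraries, which placed BCL2L1 first in each.

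In the 9 other libraries MCL1 was above BCL2L1. The ratio was 1.11, 1.18 and 1.09 in Act D-treated HCT 116p53-/- cells. It was 1.08, 1.09 and 1.08 in vehicle-treated and 1.54, 1.98 and 1.65 in Act D-treated libraries labelled RPL3 KO. Replicates of a group stayed together, and the vehicle-treated cells labelled RPL3 KO had a ratio just below that of the Act D-treated HCT 116p53-/- cells, 1.09 ± 0.00554 against 1.13 ± 0.0466. MCL1 took 19.6% ± 1.14 of the summed TPM of the 10 members in vehicle-treated and 32.7% ± 0.312 in Act D-treated HCT 116p53-/- cells, and 36.9% ± 0.883 and 44.7% ± 1.72 under the RPL3 KO label. The summed TPM of the 4 anti-apoptotic genes over that of the 5 BH3-only genes was 1.58 to 1.84 in vehicle-treated HCT 116p53-/- libraries, 1.86 to 2.15 with Act D, 2.83 to 3.53 in vehicle-treated libraries labelled RPL3 KO and 2.98 to 3.56 with Act D there. The sums are mostly MCL1, BCL2L1 and BID, and in HCT 116p53-/- cells also BIK. With vehicle, BIK took 8.53% ± 0.811 of the members' summed TPM in HCT 116p53-/- cells and 0.965% ± 0.0796 under the RPL3 KO label. BID took 21.9% ± 1.49 and 17.1% ± 2.22. Its TPM depends on its mean transcript length, which was 1107, 1423 and 1357 bases in vehicle-treated libraries labelled RPL3 KO. The BID shares there were 19.7%, 15.9% and 15.8%, at 50.2, 48.1 and 42.4 CPM. The part of transcript length in the BID shares and in the ratio was not tested. The ratio thus rests on few genes, and no test was run on the sums. The BH3-only sum holds members only and leaves out the BH3-only genes PMAIP1, BAD and BBC3. With vehicle, PMAIP1 was at 107 CPM under the RPL3 KO label against 24.2 CPM in HCT 116p53-/- cells. BAD was at 26.6 against 17 CPM and BBC3 at 7.09 against 9.38 CPM. The ratio therefore does not describe the balance of the whole family.

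**Figure D2:**
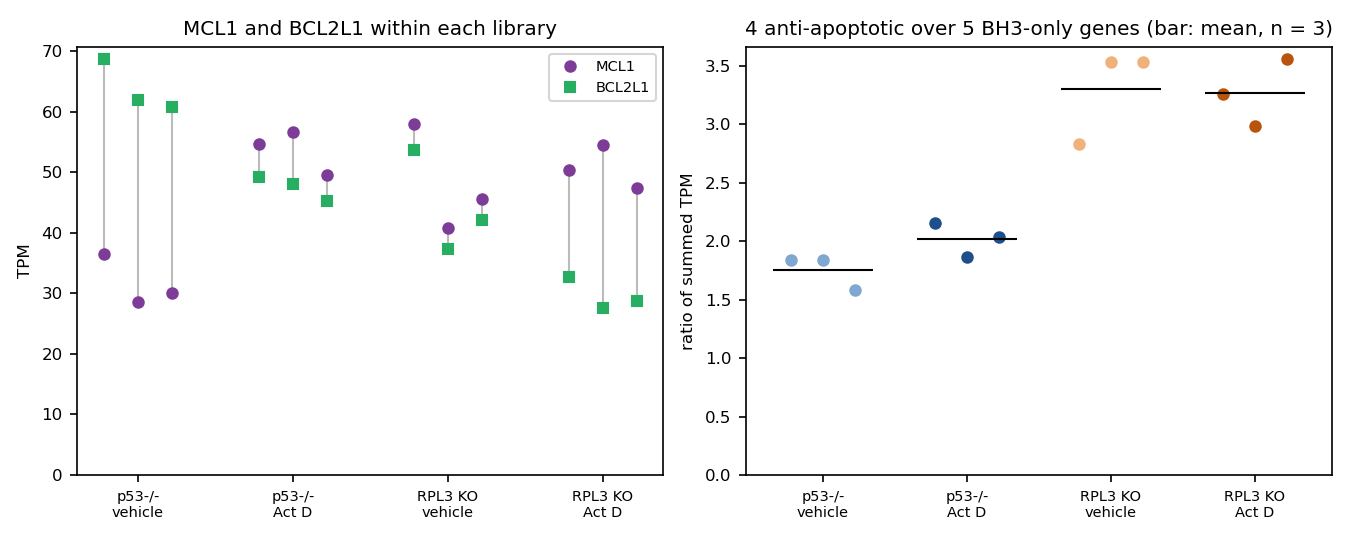
Left, TPM of MCL1 (circles) and BCL2L1 (squares) in each of the 12 libraries, joined by a line within a library; right, the summed TPM of 4 anti-apoptotic genes divided by that of 5 BH3-only genes, with bars for the mean of 3 libraries. BCL2L1 is above MCL1 in the 3 vehicle-treated HCT 116p53-/- libraries and below it in the other 9, and the ratios under the RPL3 KO label (2.83 to 3.56) lie above those of HCT 116p53-/- cells (1.58 to 2.15). The ratio leaves out the BH3-only genes PMAIP1, BAD and BBC3, of which PMAIP1 and BAD were higher under that label.

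BAK1 (chr6:33572547-33580293, minus strand), which encodes a protein that forms pores in the outer mitochondrial membrane, moved little. It was at 27.5, 27.5 and 26.4 CPM in vehicle-treated and 35.7, 32.6 and 33.2 CPM in Act D-treated HCT 116p53-/- cells. Libraries labelled RPL3 KO had 29.7, 36.3 and 30.2 CPM with vehicle and 29.6, 28.8 and 32.8 CPM with Act D. Only the vehicle-treated HCT 116p53-/- libraries stood apart, below all 9 others. Act D raised it there by 0.32 ± 0.10 on the log2 scale (edgeR adjusted p = 0.0333), and with vehicle the libraries labelled RPL3 KO were higher by 0.24 ± 0.10 (edgeR adjusted p = 0.0363). Both calls were fragile. The call for Act D was lost when any 1 of the 6 HCT 116p53-/- libraries was left out (adjusted p 0.0612 to 0.144), and the call between lines was lost without replicate 1, 2 or 3 of vehicle-treated HCT 116p53-/- cells (adjusted p = 0.0618, 0.0628 and 0.1) or replicate 2 under the RPL3 KO label (0.14, adjusted p = 0.235). Act D gave -0.08 ± 0.10 in the libraries labelled RPL3 KO (edgeR adjusted p = 0.666), and the difference of the responses, -0.40 ± 0.14, did not pass the test (edgeR adjusted p = 0.103).

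Among the 5 BH3-only genes, BMF stood higher and BCL2L11, BIK and HRK stood lower under the RPL3 KO label with either treatment, while BID did not pass the test. None of the 5 was called for Act D in either line by edgeR; at an unadjusted p under 0.05, 1 of 5 passed in each line, and DESeq2 called none of those it gave an adjusted p. BCL2L11 and BMF are shown as a gene that stood lower and one that stood higher, although BIK, and with vehicle HRK, differed by more than BCL2L11; BIK has no entry in the RefSeq table. The 250 bases before a RefSeq start of each (build GRCh38.p14) are given 5′ to 3′, BCL2L11 at chr2:111120664-111120913 on the plus strand and BMF at chr15:40108880-40109129 on the minus strand. Capitals mark matches on either strand to GTAAACA, the forkhead motif bound by FOXO factors, CACGTG, the E-box bound by MYC, GGGCGG, the GC box, and TATAAA, the TATA box.
BCL2L11: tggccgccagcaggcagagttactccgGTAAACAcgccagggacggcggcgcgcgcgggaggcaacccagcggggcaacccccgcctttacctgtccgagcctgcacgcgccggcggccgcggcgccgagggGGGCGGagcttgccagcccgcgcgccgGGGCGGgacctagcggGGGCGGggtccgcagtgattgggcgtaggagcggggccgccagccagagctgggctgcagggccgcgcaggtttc
BMF: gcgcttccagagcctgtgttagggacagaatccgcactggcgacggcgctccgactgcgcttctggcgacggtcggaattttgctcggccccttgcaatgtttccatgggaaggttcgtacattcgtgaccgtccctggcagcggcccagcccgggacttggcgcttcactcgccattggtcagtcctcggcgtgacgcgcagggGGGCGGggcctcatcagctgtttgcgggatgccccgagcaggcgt

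The BCL2L11 window held 1 forkhead match, which starts 223 bases before the RefSeq start, and 3 GC boxes, and the BMF window shown held 1 GC box. No E-box or TATA box was in either. BMF has another RefSeq window of 300 bases, at chr15:40106917-40107216, which held no match to any of the 4 motifs. A forkhead match was in 3.42% of the 35116 promoter windows of 300 bases in the RefSeq table, an E-box in 7.26%, a GC box in 45% and a TATA box in 11.5%. Over the 300-base windows of the 8 members in that table, the forkhead motif occurred in 1 member, the E-box in 1, the GC box in 6 and the TATA box in 2, which describes letters only. The 8 members have 14 windows, so these counts per member are not directly comparable with the shares per window.

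BCL2L11 (chr2:111119378-111168444, plus strand) encodes BIM, which binds every major anti-apoptotic member. It was at 29.4, 29.3 and 33.2 CPM in vehicle-treated HCT 116p53-/- cells and at 11.9, 9.61 and 10.3 CPM in vehicle-treated libraries labelled RPL3 KO. With Act D it was at 38.7, 35.3 and 36.8 CPM and at 12.8, 17.7 and 10.9 CPM. The lines did not overlap under either treatment, with differences of -1.54 ± 0.14 with vehicle (edgeR adjusted p = 1.84e-08) and -1.43 ± 0.14 with Act D (edgeR adjusted p = 6.29e-08). In HCT 116p53-/- cells the treated libraries lay above the vehicle libraries, but the log2 change of 0.27 ± 0.13 did not pass the test (edgeR adjusted p = 0.16), and a fit of only those groups gave an adjusted p of 0.0369. The change was 0.38 ± 0.15 under the RPL3 KO label (edgeR adjusted p = 0.114).

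The long noncoding gene MIR4435-2HG lies on the opposite strand of BCL2L11 and shares 727 exonic bases with it. RSEM was run with standard parameters, which do not use strand, so reads of the pair over the shared bases cannot be told apart by strand. MIR4435-2HG was at 19 CPM in vehicle-treated HCT 116p53-/- cells and 45.5 CPM under the RPL3 KO label, the opposite direction to BCL2L11. Of the other antisense neighbours, ADAMTSL4 beside MCL1 reached a group mean of 3.88 CPM, and ABALON, which shares 1735 exonic bases with BCL2L1, reached 0.274 CPM.

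BMF (chr15:40087890-40108892, minus strand) encodes a BH3-only protein that is held at the cytoskeleton through dynein light chain. Its levels were 0.972, 1.31 and 0.725 CPM in vehicle-treated and 0.997, 1.01 and 0.724 CPM in Act D-treated HCT 116p53-/- cells. In the libraries labelled RPL3 KO they were 14.7, 13.3 and 15.5 CPM with vehicle and 13.4, 13.7 and 13 CPM with Act D. The lines were far apart and the treatments overlapped. BMF was higher under that label by 3.86 ± 0.19 on the log2 scale with vehicle (edgeR adjusted p = 5.34e-12) and by 3.84 ± 0.20 with Act D (edgeR adjusted p = 1.29e-11), the largest differences between lines among the members tested. Transfer of RNA between libraries was estimated from 7 genes with at least 50 CPM in both groups labelled RPL3 KO. They were also required to have at most 0.2% of that level in vehicle-treated HCT 116p53-/- cells. Their low median share there, 0.0938% to 0.102%, thus follows from the choice of genes. In the Act D-treated HCT 116p53-/- libraries their median share was 0.617% to 0.835%. At those shares 8.56% to 10.7% of the BMF counts in the Act D-treated HCT 116p53-/- libraries would come from the other line. Subtracting them kept every call made for a member.

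BIK (chr22:43110750-43129712, plus strand), whose product acts mainly at the endoplasmic reticulum, was the BH3-only gene with the largest negative difference between lines. It was at 13.2, 14.7 and 15.5 CPM in vehicle-treated and 13.5, 15.1 and 12 CPM in Act D-treated HCT 116p53-/- cells. Under the RPL3 KO label it was at 2.17, 1.9 and 1.55 CPM with vehicle and 2.04, 0.914 and 1.86 CPM with Act D. The differences between lines were -2.95 ± 0.19 (edgeR adjusted p = 2.42e-10) and -3.03 ± 0.22 (edgeR adjusted p = 7.3e-10). The Act D changes, -0.09 ± 0.16 and -0.17 ± 0.27, did not pass the test.

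HRK (chr12:116856144-116881441, minus strand), named harakiri and best known in neurons, had few counts. It was at 2.66, 2.55 and 2.6 CPM in vehicle-treated HCT 116p53-/- cells and 0.562, 0.6 and 0.743 CPM under the RPL3 KO label, a difference of -2.02 ± 0.35 on the log2 scale (edgeR adjusted p = 5.38e-05). With Act D the levels spread to 1.99, 1.62 and 2.9 CPM and to 0.873, 1.6 and 0.812 CPM, which left a narrow gap between lines, and the difference was -0.996 ± 0.35 (edgeR adjusted p = 0.0182). That call was lost without replicate 3 of Act D-treated HCT 116p53-/- cells (-0.78, adjusted p = 0.0782) and without replicate 1 or 3 of Act D-treated libraries labelled RPL3 KO (-0.83 and -0.89, adjusted p = 0.0792 and 0.0511). The treated libraries labelled RPL3 KO lay above the vehicle ones, but the change of 0.75 ± 0.40 did not pass the test (edgeR adjusted p = 0.256).

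BID (chr22:17734138-17774770, minus strand), which links death receptors to mitochondria once caspase-8 cleaves it, was the most even member. Its 12 values lay between 38.9 and 53.3 CPM. The log2 differences were -0.08 ± 0.09 and -0.15 ± 0.09 between lines and -0.11 ± 0.09 and -0.19 ± 0.09 for Act D, with edgeR adjusted p between 0.15 and 0.454. Scaling by library size alone made the line differences -0.32 and -0.40, with adjusted p of 0.0166 and 0.00473.

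**Figure D3:**
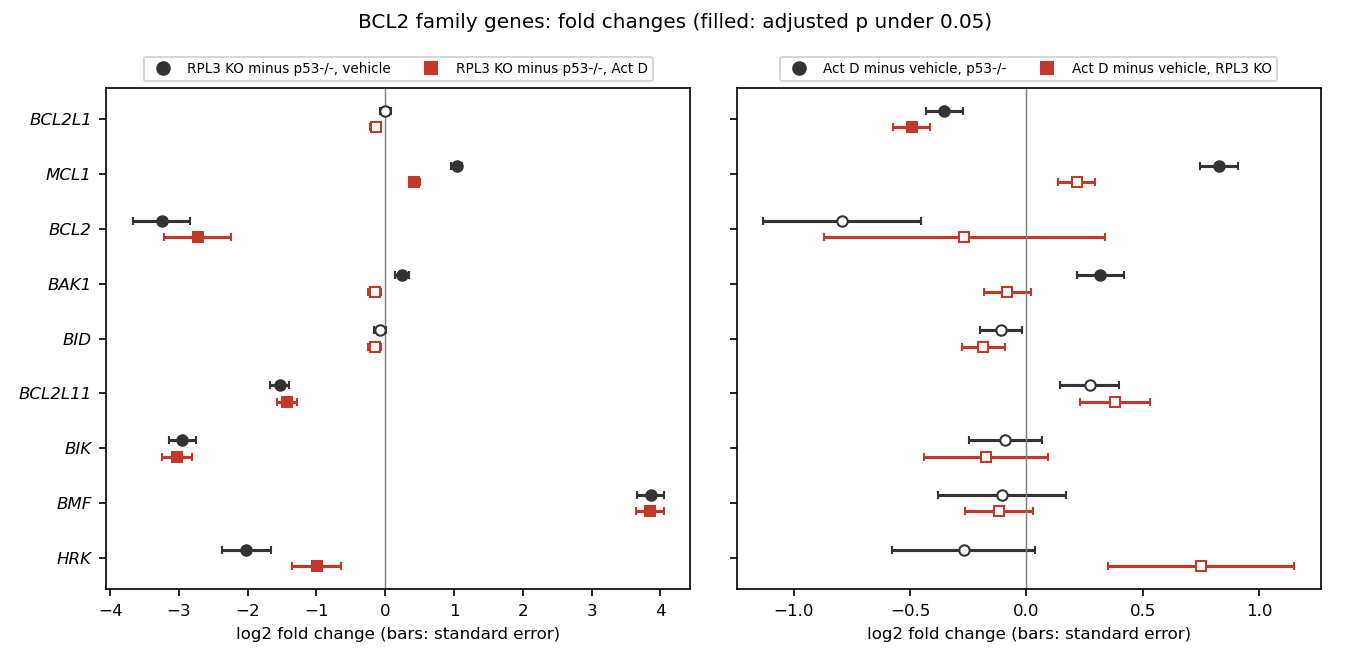
Log2 fold changes of the 9 members tested, with standard errors, between lines (left) and for Act D (right), from edgeR; filled symbols have an adjusted p under 0.05. Line differences run from -3.25 for BCL2 to 3.86 for BMF, whereas the called Act D changes are MCL1 and BAK1 (higher) and BCL2L1 (lower) in HCT 116p53-/- cells and BCL2L1 (lower) under the RPL3 KO label.

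Counts of members whose groups do not overlap differed in part from the calls. Between lines with Act D, BCL2L1 and BID were lower without overlap but were not called. For Act D, BCL2 and BCL2L11 in HCT 116p53-/- cells and MCL1 and HRK under the RPL3 KO label did not overlap and were not called. Of the 10 members, 4 were higher and 4 lower without overlap between the lines with vehicle, against 72.5% of all genes tested without overlap, and 3 were higher and 6 lower with Act D (74.1% of all genes). For Act D, 3 were higher and 2 lower without overlap in HCT 116p53-/- cells (38.2% of all genes), and 2 were higher and 1 lower under the RPL3 KO label (27.6% of all genes).

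Transcripts could be compared in a single library, replicate 2 of vehicle-treated HCT 116p53-/- cells, for which the authors deposited values per transcript, so there is no replicate behind them. MCL1-202 took 97.6% of the expected counts of MCL1, and BCL2L1-201 took 74.1% of those of BCL2L1, followed by BCL2L1-203 at 13.4% and BCL2L1-205 at 8.75%. For BAK1, BIK and HRK a single transcript had all counts. BCL2L11 counts were divided among several transcripts of similar length, with 38.3% on BCL2L11-204. The deposited mean transcript length of BCL2L11 was 2176, 2198 and 2555 bases in vehicle-treated libraries labelled RPL3 KO and 3409 to 4836 bases in the 9 others. It is weighted by TPM, and in the library with transcript values 1 expected count on a transcript of 249 bases took 11.5% of the gene's TPM, so that few reads can move this length.

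The other 13 genes of the family on the list used here include the direct p53 targets, and 11 of them passed the filter. Between lines, 6 stood above and 2 below the HCT 116p53-/- level under the RPL3 KO label with vehicle, and 6 above and 3 below with Act D. Over all genes tested, 71.3% and 70.4% were called in these comparisons. PMAIP1, which encodes the MCL1-binding BH3-only protein NOXA, was at 28.1, 22.3 and 22.2 CPM in vehicle-treated and 53.7, 51.3 and 52.3 CPM in Act D-treated HCT 116p53-/- cells. In libraries labelled RPL3 KO it was at 97.1, 125 and 98.9 CPM with vehicle and 149, 175 and 150.2 CPM with Act D. Like MCL1, PMAIP1 was thus higher under that label (2.15 ± 0.12 with vehicle, edgeR adjusted p = 1.64e-11) and without overlap between treatments in either line. Act D raised it by 1.11 ± 0.12 in HCT 116p53-/- cells (edgeR adjusted p = 3.6e-06) and by 0.56 ± 0.11 under the RPL3 KO label (edgeR adjusted p = 0.00222). The responses differed by -0.56 ± 0.16 (edgeR adjusted p = 0.0442), a call lost when any of 8 libraries was left out, namely every treated HCT 116p53-/- library, its vehicle replicates 2 and 3, and vehicle replicate 2 and treated replicates 1 and 3 under the RPL3 KO label (adjusted p 0.0661 to 0.111).

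BBC3, the gene of the BH3-only protein PUMA, was at 6.68, 13.8 and 7.61 CPM with vehicle and 19.6, 24.1 and 17.9 CPM with Act D in HCT 116p53-/- cells. It rose by 1.14 ± 0.23 there (edgeR adjusted p = 0.00199) and was 0.04 ± 0.26 under the RPL3 KO label (edgeR adjusted p = 0.944). The difference between the responses, -1.10 ± 0.35, did not pass the test (edgeR adjusted p = 0.0696). DESeq2, the likelihood-ratio test and the fit with no filter called it, as did leaving out vehicle replicate 2 of HCT 116p53-/- cells or treated replicate 1 under the RPL3 KO label, and the adjusted p without these libraries was 0.00925 and 0.0332. With vehicle BBC3 did not pass the test between lines (-0.39 ± 0.25, edgeR adjusted p = 0.161; 0.0466 without vehicle replicate 1 of HCT 116p53-/- cells), and with Act D it was lower under the RPL3 KO label, at -1.49 ± 0.25 (edgeR adjusted p = 3.21e-05). BAX, the effector that works beside BAK, was called in none of the comparisons in the main fit. Its Act D change in HCT 116p53-/- cells was 0.29 ± 0.13 (edgeR adjusted p = 0.13, and 0.0401 without vehicle replicate 2). Between lines with Act D the BAX difference was -0.26 ± 0.13 (edgeR adjusted p = 0.0849). It was called without treated replicate 3 of HCT 116p53-/- cells (edgeR adjusted p = 0.0491). A fit of only the groups compared (-0.25, edgeR adjusted p = 0.0323) and library size alone (-0.50, edgeR adjusted p = 0.00296) called it too.

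BOK, a BAX-like effector, fell with Act D from 31.9, 44.4 and 48.4 CPM to 13.4, 16.6 and 12.5 CPM in HCT 116p53-/- cells, a change of -1.55 ± 0.16 (edgeR adjusted p = 3.11e-06). Under the RPL3 KO label it went from 64.8, 59 and 46.7 CPM to 43.3, 35.4 and 40.2 CPM, a change of -0.52 ± 0.15 (edgeR adjusted p = 0.0324). The latter call was lost without vehicle replicate 1 or 2 or treated replicate 2 or 3 of that label, with an adjusted p of at most 0.117. The responses of BOK differed by 1.03 ± 0.22 (edgeR adjusted p = 0.00868). BNIP3, a hypoxia-responsive gene for a mitophagy receptor, showed the widest gap of the list, at 66.6, 59.2 and 56.3 CPM in vehicle-treated HCT 116p53-/- cells and 1.2, 1.6 and 2.03 CPM under the RPL3 KO label (-5.21 ± 0.26, edgeR adjusted p = 4.71e-12). BAD and BCL2L12 were higher there by 0.66 ± 0.13 and 0.77 ± 0.19, and BCL2L15 was lower, at -1.25 ± 0.39, each with an edgeR adjusted p of at most 0.00882.

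**Figure D4:**
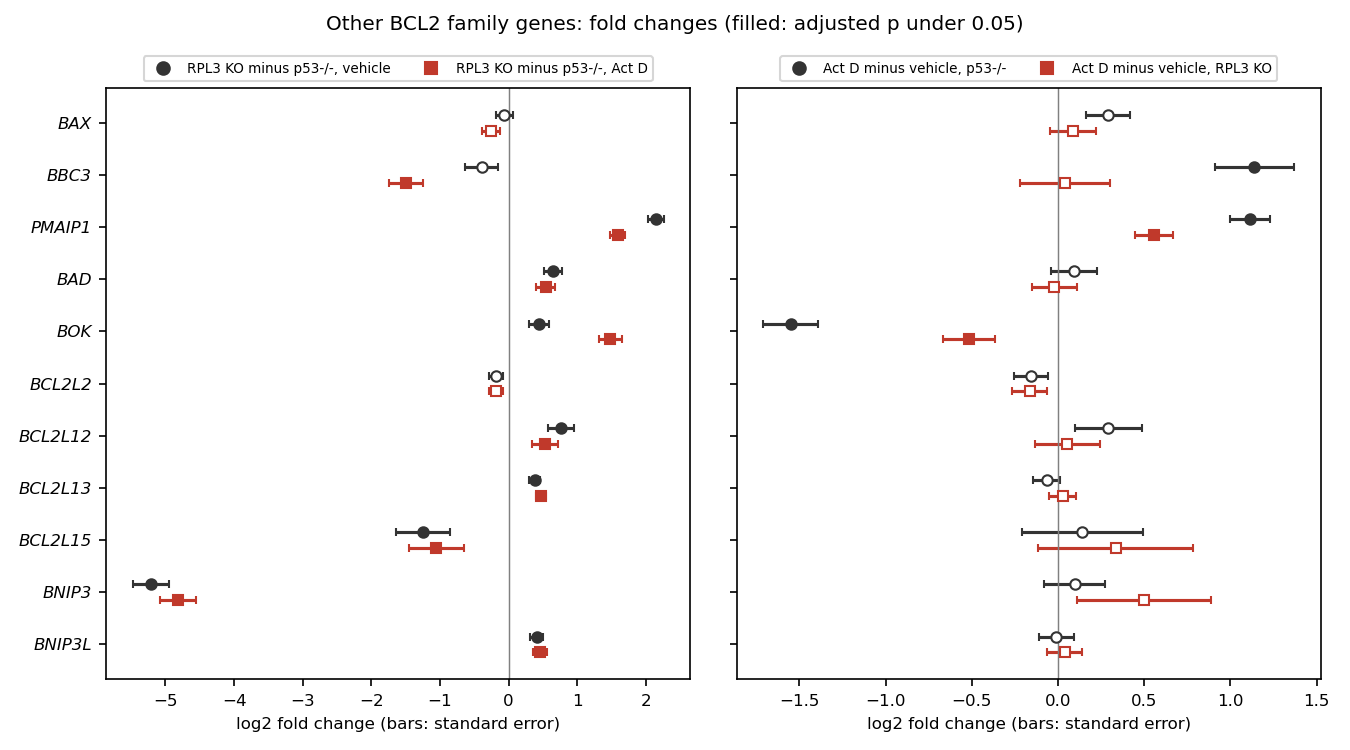
Log2 fold changes with standard errors of the 11 other BCL2 family genes tested, between lines (left) and for Act D (right), from edgeR; filled symbols have an adjusted p under 0.05. BNIP3 is lowest between lines (-5.21 with vehicle) and PMAIP1 highest (2.15), and for Act D PMAIP1 (1.11) and BOK (-1.55) have the same sign in both lines.

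Downstream of the family, 20 genes for caspases, their inhibitors and released mitochondrial proteins were read, of which 9 had a higher and 9 a lower level under the RPL3 KO label with vehicle. Among all genes tested, 71.3% were called in that comparison. BIRC3, an inhibitor of apoptosis, was higher by 1.84 ± 0.18, and HTRA2 and ENDOG, which encode mitochondrial enzymes released during cell death, by 0.93 ± 0.12 and 0.78 ± 0.18 (edgeR adjusted p of at most 0.000778). The caspase genes CASP6 and CASP2 were lower, at -0.72 ± 0.19 and -0.71 ± 0.10 (edgeR adjusted p of at most 0.00299). Act D raised 3 of the 20 and lowered 1 in HCT 116p53-/- cells and lowered 3 under the RPL3 KO label. The shares of all genes called for Act D were 18.7% and 11.9%. BIRC6, a large ubiquitin ligase that restrains caspases, fell in both, with -0.59 ± 0.08 (edgeR adjusted p = 8.46e-05) and -0.39 ± 0.08 (edgeR adjusted p = 0.00504). The other calls were small. BIRC2 and VDAC2, at 0.29 and 0.23 in HCT 116p53-/- cells, each lost the call without vehicle replicate 2 or 3 or treated replicate 1 or 3 (VDAC2 also without treated replicate 2, adjusted p = 0.0574), with adjusted p of at most 0.123 and 0.147 in these fits. CASP8 and DIABLO, at -0.41 and -0.28 under the RPL3 KO label, each lost it without vehicle replicate 1 or treated replicate 1, with adjusted p of at most 0.14 and 0.111, and DIABLO also without vehicle replicate 2 (adjusted p = 0.0874).

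Genes that control the members were read from a list of 12. With vehicle, 4 were higher and 5 lower under the RPL3 KO label, against 71.3% of all genes called. MYC, whose protein drives growth and primes cells for apoptosis, was at 384, 395 and 376 CPM in HCT 116p53-/- cells and at 15.2, 14.1 and 16.6 CPM in the libraries labelled RPL3 KO (-4.66 ± 0.09, edgeR adjusted p = 5.56e-17). FOXO1, a forkhead factor, was higher by 1.66 ± 0.13 there (edgeR adjusted p = 3.04e-09). HUWE1, a ubiquitin ligase for MCL1, was lower, at -1.17 ± 0.09, and DYNLL2, the dynein light chain that holds BMF, at -1.57 ± 0.08 (edgeR adjusted p of at most 2.86e-09). The other dynein light chain gene of the list, DYNLL1, was higher under that label, by 0.69 ± 0.09 with vehicle (edgeR adjusted p = 2.41e-06) and by 0.57 ± 0.09 with Act D (edgeR adjusted p = 2.28e-05).

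Act D raised DYNLL1 and DYNLL2 in both lines, by 0.50 ± 0.09 and 0.47 ± 0.08 in HCT 116p53-/- cells and by 0.38 ± 0.09 and 0.45 ± 0.08 under the RPL3 KO label (edgeR adjusted p of at most 0.00901). It lowered 5 of the 12 in HCT 116p53-/- cells and 4 under the RPL3 KO label, against 11.1% and 8.4% of all genes. Under that label FOXO3 was at -0.76 ± 0.10, NFKB1 at -0.71 ± 0.12 and FBXW7, a substrate receptor that targets MCL1, at -0.56 ± 0.10 (edgeR adjusted p of at most 0.00103). In HCT 116p53-/- cells NFKB1 was at -0.45 ± 0.12 and FOXO3 at -0.31 ± 0.09, and both calls were lost without treated replicate 1 (adjusted p = 0.0681 and 0.132). That of FOXO3 was also lost without vehicle replicate 1 or 3 or treated replicate 2 (adjusted p 0.0702 to 0.0921). FBXW7 was the regulator whose response differed between lines, by -0.65 ± 0.14 (edgeR adjusted p = 0.00852).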

How the data were processed

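RNA-seq libraries (TruSeq RNA Sample Preparation kit) were analysed from 12 samples, grouped by the sample labels. The authors trimmed reads, removed contaminating sequences and quantified genes of hg38 with RSEM 1.2.25 (submitters' processing notes), and they deposited expected counts, TPM and, in 1 case (vehicle-treated HCT 116p53-/-, replicate 2), values per transcript with the percent of the gene's TPM, whose counts were summed per gene. The expected counts deposited are not normalized. RSEM divides reads that fit several transcripts or genes, and its standard parameters, which the authors used, take no account of strand. The deposited posterior standard deviations and FPKM columns were not used for any test.

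Expected counts were rounded to whole numbers. filterByExpr by group left 15692 of 33990 genes with a rounded count, and TMM factors were between 0.847 and 1.15. All groups were fitted in one edgeR 4.0.16 model (common dispersion 0.0117, 8 residual degrees of freedom). The contrasts were the line difference for vehicle, the line difference for Act D, the Act D response of either line and the interaction. Each was tested with edgeR (quasi-likelihood F test) and p-values were adjusted over all genes tested by the Benjamini-Hochberg method. Every adjusted p comes from it unless another tool or setting is named. The comparisons share groups, so their values are given side by side only. TPM was used only between genes of the same library. Totals of 10087880 to 21138861 counts set the precision, and counting intervals (exact binomial) cover counting error only. Replicates differed by more than sampling noise, with a chi-square per gene of at least 7.24, and p-values measure the spread between these libraries. On simulated counts for Act D in HCT 116p53-/- cells, 184 of 200 changed genes were recovered, with 7 false calls, among the 15184 genes whose simulated counts passed the filter. Names and coordinates came from GENCODE v44 (60261 of 60617 identifiers matched), and promoters from the RefSeq table (GRCh38.p14), which held 8 of the 10 members.

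The members and gene lists were chosen with earlier results of these data known. All members are named in every comparison. From the other lists the text names BAX, BBC3 and PMAIP1, and in a comparison up to 3 genes per direction with the largest change among those called at 1 CPM or more; some results that this rule would name are not reported here. Alternatives were DESeq2 1.42.0, a likelihood-ratio test, other scalings and filters, a replicate block, fits of fewer groups, a log2 fold change of at least 1, subtraction of transferred RNA, and leaving out each library.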

Additional observations from a re-analysis of the deposited data

Results flagged for a closer look

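The responses to Act D differed between the lines, by edgeR's quasi-likelihood test of the interaction, for 4 of the genes named. Among all genes tested, 6.53% were called, and FBXW7 and BOK were named by a rule that takes called genes. By list, 1 of 9 members and 1 of 12 regulators were called. Of 11 other family genes 1 was positive and 1 negative, and of 20 caspase pathway genes 0 were called. For MCL1 the response under the RPL3 KO label minus that in HCT 116p53-/- cells was -0.61 on the log2 scale (adjusted p = 0.00369), and it lay between -0.69 and -0.57 over 22 alternatives. For PMAIP1 it was -0.56 (adjusted p = 0.0442; 0.0036 to 0.111 over 22 alternatives, 13 of which lost the call). For FBXW7 it was -0.65 (adjusted p = 0.00852), and for BOK 1.03 (adjusted p = 0.00868). No cause was tested.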

How the results depend on the processing

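For the 45 fold changes of the members, 804 values were computed under alternatives. Of these, 763 kept their direction and side of the threshold, 30 lost the call, 10 gained it and 1 reversed, BCL2L1 between lines with vehicle under library size alone (-0.24); that scaling moved the median gene by -0.24 between lines and by -0.10 for Act D. For the 68 fold changes of other named genes, 1066 of 1181 values were unchanged in this sense, 104 lost the call, 11 gained it and 0 reversed. Counts of calls are given with the alternatives that moved them, and the cause was not tested except that a log2 change of at least 1 is a stricter rule. Of 7 members called between lines with vehicle 7 to 8 were called with a library left out, and of 6 with Act D 5 to 7; BCL2A1 passed the filter in most of these fits. Of 3 members called for Act D in HCT 116p53-/- cells, 5 were called in a fit of only those groups, 0 with a log2 change of at least 1, and 2 with any library left out. Of 1 member under the RPL3 KO label, 2 were called by DESeq2 and with upper-quartile scaling, 0 with a log2 change of at least 1, and 1 with any library left out. The 1 member whose responses differed became 0 with a log2 change of at least 1. Of the 31 other family and caspase genes tested, 26 were called between lines with vehicle and 26 with Act D, and 5 and 8 had a log2 change of at least 1. Over all genes, 71.3% and 70.4% were called between lines. For Act D, 18.7% of all genes were called in HCT 116p53-/- cells and 11.9% under the RPL3 KO label, and 6.53% for the difference of the responses. For Act D in HCT 116p53-/- cells 7 were called, against 4 with no filter, 3 with a log2 change of at least 1 and 4 to 7 with a library left out. Under the RPL3 KO label 5 were called, against 3 with upper-quartile scaling, 3 with the replicate block, 3 in a fit of only those groups, 0 with a log2 change of at least 1 and 2 to 5 with a library left out. For the difference of the responses 2 were called, against 1 each with library size alone, upper quartile, the replicate block, a log2 change of at least 1 and subtracted transfer, and 1 to 2 with a library left out. Replicate numbers did not pair the libraries: over 18 same-numbered pairs the correlation of deviations was -0.206 to 0.135, over 0.1 in 1 pair, and 2 libraries matched their own number best. DESeq2 gave no adjusted p for some low-count members. Depth limits BCL2, BCL2A1 and HRK, which had at most 15 counts in any library labelled RPL3 KO. Counts were also low on 1 side of the line differences of BMF and BIK. BMF had 9 to 19 counts in HCT 116p53-/- libraries, and BIK had 8 to 38 in libraries labelled RPL3 KO.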
